A study of Mus musculus with 4 samples.

Results

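The genes described here are 10 genes of fatty acid synthesis, storage and uptake, namely Thrsp, Fasn, Acaca, Acly, Scd1, Scd2, Plin2, Xdh, Cd36 and Lpl, chosen by symbol from the 32285 genes of the deposited count tables. To investigate how these genes are expressed in mammary tumors with and without Frmd8, single-cell RNA sequencing (scRNA-seq) counts of 4 tumors were analysed, 1 mouse per library. The Cre- animals (replicates 1 and 3) had the genotype MMTV-Cre-; Frmd8fl/fl; PyMT. Their Cre+ littermates (replicates 2 and 4) had the genotype MMTV-Cre+; Frmd8fl/fl; PyMT, and tumors were taken at 17 to 18 weeks. Every mouse carried the floxed Frmd8 alleles and the polyoma middle T oncogene, which is driven by the mouse mammary tumor virus (MMTV) promoter and gives rise to luminal mammary tumors. In the Cre+ mice the MMTV promoter also drives Cre, so that Frmd8 is deleted in luminal epithelium and not by design in stromal or immune cells, and cells were sorted by flow cytometry before loading. The floxed and PyMT lines were on a C57BL/6 background.

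Mammary epithelium can make milk fat from glucose. ATP citrate lyase (Acly) supplies cytosolic acetyl-CoA, acetyl-CoA carboxylase (Acaca) converts it to malonyl-CoA, and fatty acid synthase (Fasn) assembles the chain, while Thrsp (Spot 14) is a small protein that promotes this synthesis in lactating gland and liver. Stearoyl-CoA desaturases (Scd1, Scd2) put a double bond into the product. Perilipin 2 (Plin2) coats lipid droplets, and xanthine dehydrogenase (Xdh) is needed to envelop milk fat globules at the apical membrane. Lipoprotein lipase (Lpl) releases fatty acids from circulating lipoproteins, and Cd36 carries them into cells. The genes together thus cover making and taking up fat.

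The upstream sequences of 4 of the 6 members in the promoter table are shown first, chosen to cover different patterns of expression. Among epithelial cells, endothelial cells, macrophages and fibroblasts, Thrsp and Fasn were highest in epithelial cells and Plin2 in macrophages. Cd36 was low in epithelial cells. The sequences are the 250 bases before the start of the RefSeq gene, on the gene's own strand, in mouse build GRCm38.p6. Thrsp lies at chr7:97417551-97417800, Fasn at chr11:120824548-120824797, Plin2 at chr4:86670060-86670309 and Cd36 at chr5:17835897-17836146, all on the minus strand. Capitals mark matches to ATTGG (the reverse of the CCAAT box bound by NF-Y), GGGCGG (the GC box), CACNCCA (a core of the sterol regulatory element) and CACGTG (an E-box), each searched on both strands.
Thrsp: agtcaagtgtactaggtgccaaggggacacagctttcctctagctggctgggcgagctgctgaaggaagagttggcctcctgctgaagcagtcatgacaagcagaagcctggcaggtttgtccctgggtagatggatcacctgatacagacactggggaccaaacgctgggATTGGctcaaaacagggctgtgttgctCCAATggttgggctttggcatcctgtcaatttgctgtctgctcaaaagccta
Fasn: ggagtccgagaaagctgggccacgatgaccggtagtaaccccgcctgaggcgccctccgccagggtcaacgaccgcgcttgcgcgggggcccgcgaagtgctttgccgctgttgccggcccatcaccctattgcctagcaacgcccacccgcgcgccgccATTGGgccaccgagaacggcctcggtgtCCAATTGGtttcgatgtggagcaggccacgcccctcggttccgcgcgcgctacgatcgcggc
Plin2: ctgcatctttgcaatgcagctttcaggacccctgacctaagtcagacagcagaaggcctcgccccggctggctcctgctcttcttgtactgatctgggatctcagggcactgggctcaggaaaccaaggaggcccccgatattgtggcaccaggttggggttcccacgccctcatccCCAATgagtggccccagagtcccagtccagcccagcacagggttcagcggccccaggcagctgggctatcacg
Cd36: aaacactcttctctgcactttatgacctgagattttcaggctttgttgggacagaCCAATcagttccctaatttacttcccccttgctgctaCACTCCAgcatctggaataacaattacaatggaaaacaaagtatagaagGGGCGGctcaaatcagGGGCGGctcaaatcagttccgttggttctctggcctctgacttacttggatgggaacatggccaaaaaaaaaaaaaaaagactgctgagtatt

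The promoter table held 6 of the 10 genes, the others being Scd1, Scd2, Xdh and Lpl, for which no entry was used. ATTGG was found in Thrsp (2 matches), Fasn (3 matches), Plin2 (1 match) and Cd36 (1 match), thus in 4 of the 6 windows, against 33.8% of all 32851 promoter windows of the same length. In Fasn 2 of the matches overlap by 2 bases, as one palindromic run. GGGCGG was found in Acly (4 matches) and Cd36 (2 matches), against 32.7% of all windows. CACNCCA was found in Cd36 alone, against 15.6% of all windows, and CACGTG was in none of the 6, against 6.02% of all. A match is a run of letters in this window and was not tested for binding.

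Barcodes with at least 1000 UMIs (unique molecular identifiers, counts of RNA molecules) and at most 20% mitochondrial UMIs were kept, 4922 and 5918 cells in Cre- replicates 1 and 3 and 5609 and 7123 in Cre+ replicates 2 and 4, with 107848230 to 134882211 UMIs per library. Cells were put into a class when marker genes of that class alone made up at least 10 UMIs per 10000. This gave 2056 to 2994 epithelial cells per library, 82 to 186 endothelial cells, 1033 to 2452 macrophages and 132 to 543 fibroblasts, and the named class markers had summed levels of 5310 to 9938 CPM (UMIs per 1000000 UMIs of the summed cells) in epithelial, 8386 to 10412 in endothelial, 16155 to 18356 in macrophage and 43272 to 50473 in fibroblast sums. The gate itself sets these sums high and those of other classes low, so they do not test the classes. What remained of other classes' markers reached 264 CPM, for macrophage markers in endothelial cells. The libraries shared 6 to 16 barcodes per pair. Levels are CPM of a class summed over its cells in 1 mouse, and a library that counts 3' ends gives no comparison between genes, so each gene is compared with itself. Scd1 and Scd2 are close relatives, and how reads common to both were divided is uncertain.

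The targeted gene was examined to check the labels. In epithelial cells Frmd8 was at 24.3 CPM in both Cre- libraries and 5.63 and 10.3 CPM in the Cre+ replicates 2 and 4. The Cre+ libraries were thus below both Cre- libraries, with a log2 fold change of -1.52 ± 0.40 (SE), although the adjusted p was 0.999 by edgeR. In endothelial cells, where Cre is not designed to act, Frmd8 ranged from 28.9 to 35.8 CPM and the genotypes overlapped. Frmd8 was also lower in both Cre+ libraries in macrophages (19.3 and 13.8 against 25.2 and 24.4 CPM), fibroblasts (14.8 and 14.0 against 16.2 and 19.1 CPM) and T cells (34.1 and 32.8 against 64.2 and 59.0 CPM), and the part of free RNA or of Cre outside epithelium in this was not tested. The 3' counts need not vanish when internal exons are lost.

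Thrsp was found almost wholly in epithelial cells. Its level in epithelial cells was 168 and 374 CPM in Cre- replicates 1 and 3 and 295 and 406 CPM in Cre+ replicates 2 and 4. Outside epithelium it was 6.84 to 13.4 CPM in endothelial cells, 1.66 to 3.62 CPM in macrophages and 2.95 to 23.7 CPM in fibroblasts. No endothelial, macrophage or fibroblast library reached any epithelial value. The lowest epithelial library was at 168 CPM and the highest library of these other classes, a fibroblast one, at 23.7 CPM. By edgeR across the 16 class sums, the log2 fold change of epithelial over endothelial cells was 5.07 ± 0.59 (SE, adjusted p = 4.5e-06), over macrophages 6.30 ± 0.58 (adjusted p = 2.4e-07) and over fibroblasts 4.95 ± 0.56 (adjusted p = 3.1e-06). Epithelial cells held 98.6% to 99.3% of the Thrsp UMIs of all classed cells in each library. The fibroblast value of 23.7 CPM stood in Cre- replicate 1, and the call of lower Thrsp in macrophages than in fibroblasts (log2 -1.35 ± 0.53, adjusted p = 0.0357) was lost without that library, at -0.21. It was also lost under 5 other alternatives, namely without replicate 2 or 3, with the limits on genes and UMIs per cell, with a stricter gate and with the mouse as a block, where it stayed between -1.05 and -1.68.

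**Figure D1:**
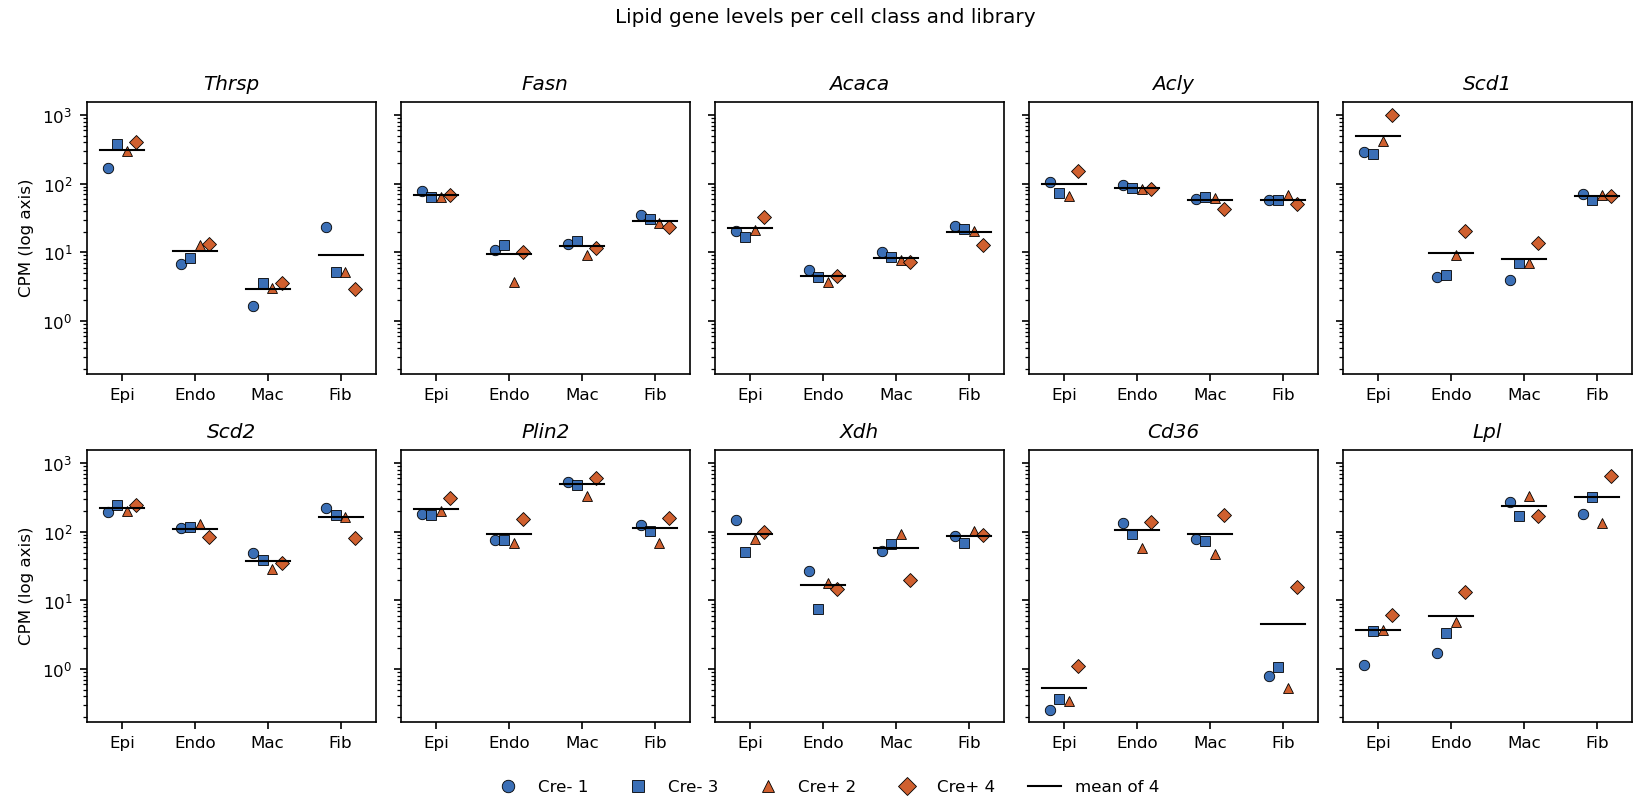
Levels (CPM, log axis) of the 10 genes in epithelial (Epi), endothelial (Endo), macrophage (Mac) and fibroblast (Fib) sums, one point per library and a line at the mean of 4. Thrsp and Scd1 stand highest in epithelial cells, Plin2 in macrophages, Cd36 in endothelial cells and macrophages, and Lpl in macrophages and fibroblasts.

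The enzymes of synthesis showed smaller contrasts between classes. Fasn in epithelial cells was 77.5, 63.7, 64.0 and 67.9 CPM in Cre- replicates 1 and 3 and Cre+ replicates 2 and 4. It was 23.6 to 34.6 CPM in fibroblasts, 9.10 to 14.8 CPM in macrophages and 3.69 to 12.6 CPM in endothelial cells. The epithelial and fibroblast libraries did not overlap with each other or with the other classes, whereas macrophage and endothelial libraries did, and the log2 fold change over fibroblasts was 1.14 ± 0.19 (SE, edgeR adjusted p = 0.00012). With limits on genes and UMIs per cell, this Fasn call over fibroblasts was lost, at 0.61. Acaca reached 16.9 to 32.3 CPM in epithelial cells and 12.9 to 24.3 CPM in fibroblasts, ranges that overlapped, and was lower in macrophages (7.18 to 9.98 CPM) and endothelial cells (3.69 to 5.47 CPM). The log2 difference of epithelial cells was 2.39 ± 0.29 over endothelial cells and 1.09 ± 0.23 over macrophages, with edgeR adjusted p = 6.6e-06 and 0.0007. Acly differed little between classes. Its epithelial levels of 104, 72.3, 67.1 and 155 CPM overlapped those of endothelial cells (83.6 to 94.7 CPM), and it was 49.9 to 67.6 CPM in fibroblasts and 43.2 to 63.5 CPM in macrophages. Of the epithelial differences that from fibroblasts passed, at 0.67 ± 0.24 (adjusted p = 0.028), and it fell to 0.21 without Cre+ replicate 4 (adjusted p = 0.283) and turned to -0.01 with limits on genes and UMIs per cell. This Acly call was also lost without Cre- replicate 1, at 0.64.

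The desaturases differed from each other. Scd1 was 286 and 271 CPM in the epithelial cells of Cre- replicates 1 and 3 and 422 and 1017 CPM in those of Cre+ replicates 2 and 4. Fibroblasts had 58.7 to 70.5 CPM, endothelial cells 4.44 to 20.2 CPM and macrophages 3.98 to 13.9 CPM. Every epithelial library was above every fibroblast, endothelial and macrophage library. The log2 fold change over fibroblasts was 2.62 ± 0.38, over endothelial cells 5.91 ± 0.47 and over macrophages 5.52 ± 0.43, with edgeR adjusted p = 3.1e-05, 8.3e-08 and 3.4e-08. B cells, which were few and not among the classes compared, overlapped the epithelial values. They had 153 and 313 CPM in Cre- replicates 1 and 3 and 438 and 291 CPM in Cre+ replicates 2 and 4. Scd2 instead spread over 3 classes, at 197 to 245 CPM in epithelial cells, 80.1 to 225 CPM in fibroblasts and 84.1 to 130.3 CPM in endothelial cells, and was lowest in macrophages at 28.3 to 49.4 CPM. The epithelial excess of Scd2 was 2.22 ± 0.24 over macrophages and 1.07 ± 0.23 over endothelial cells (edgeR adjusted p = 1.2e-06 and 0.0014). The difference of epithelial Scd2 from fibroblasts did not pass. The call of lower Scd2 in endothelial cells than fibroblasts (-0.70 ± 0.23, adjusted p = 0.0235) was lost without each of Cre- replicate 1, Cre+ replicate 2 and Cre- replicate 3. It was also lost without TMM, at -0.57, and with limits on genes and UMIs per cell, at -0.47.

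The genes of the lipid droplet and milk fat globule divided by class. Plin2 was 537 and 478 CPM in macrophages of Cre- replicates 1 and 3 and 337 and 618 CPM in those of Cre+ replicates 2 and 4. Epithelial cells had 178 to 309 CPM, fibroblasts 68.7 to 161 CPM and endothelial cells 68.2 to 155 CPM. In granulocytes, which were not among the classes compared, Plin2 was 1002 CPM in Cre+ replicate 4, above the macrophages there. It was below the macrophages in each other library. The lowest macrophage library stood above the highest epithelial one, and edgeR put epithelial cells at -1.55 ± 0.30 against macrophages (adjusted p = 0.00037), macrophages at 2.38 ± 0.31 against fibroblasts (adjusted p = 9.2e-06) and endothelial cells at -2.87 ± 0.32 against macrophages (adjusted p = 2.4e-06). Against fibroblasts, epithelial Plin2 was 0.82 ± 0.30 higher (adjusted p = 0.0268), a call that was lost without Cre- replicate 1 or Cre- replicate 3. With the mouse as a block, endothelial Plin2 also fell below that of fibroblasts (-0.49 ± 0.15, adjusted p = 0.0142), a difference that did not pass without the block. Xdh was highly variable among mice, at 148, 51.4, 79.9 and 98.7 CPM in epithelial cells, 68.3 to 103 CPM in fibroblasts and 20.2 to 92.5 CPM in macrophages. These classes overlapped and none of their differences passed. Xdh was lowest in endothelial cells, at 7.63 to 27.0 CPM, which was 2.55 ± 0.48 below epithelial cells on the log2 scale (adjusted p = 0.00037).

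The genes of uptake were nearly absent from epithelial cells. Cd36 was 133 and 91.9 CPM in endothelial cells of Cre- replicates 1 and 3, and 58.4 and 141 CPM in those of Cre+ replicates 2 and 4. Macrophages had 77.4, 74.1, 48.1 and 178 CPM, overlapping the endothelial values. Epithelial cells had 0.258 to 1.13 CPM, from 20 to 79 UMIs per library, and the log2 fold change of epithelial cells against endothelial cells was -7.74 ± 0.89 and against macrophages -7.90 ± 0.88 (edgeR adjusted p = 3.7e-06 and 1.8e-06). In fibroblasts Cd36 was 0.801 and 1.08 CPM in the Cre- replicates 1 and 3, 0.528 CPM in replicate 2 (Cre+) and 15.5 CPM in replicate 4 (Cre+), from 5, 11, 8 and 42 UMIs. Fibroblasts lay below macrophages in every library and the log2 fold change of epithelial cells against fibroblasts was -2.53 ± 0.92 (adjusted p = 0.0271), a call lost without Cre- replicate 1 or Cre- replicate 3.

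Lpl was found mainly in macrophages and fibroblasts. Macrophages had 269.6 and 169 CPM in Cre- replicates 1 and 3 and 334 and 168 CPM in Cre+ replicates 2 and 4. Fibroblasts had 182, 322, 136 and 657 CPM in the same order, so the classes overlapped, and their difference did not pass. Epithelial cells had 1.14 to 6.23 CPM and endothelial cells 1.71 to 13.4 CPM. The log2 fold change of epithelial cells was -6.46 ± 0.58 against macrophages and -6.61 ± 0.59 against fibroblasts (edgeR adjusted p = 1.8e-07 and 2.6e-07). Both Cd36 and Lpl were highest in fibroblasts of Cre+ replicate 4, a library with 132 fibroblasts. The 6 adipocyte markers Adipoq, Lep, Cfd, Retn, Plin1 and Cidec together had 0.739 CPM there and 66.9 CPM in replicate 2 (Cre+), where 1 gene, Cfd, gave 66.0 CPM. Lep and Cidec were at 0 UMIs in fibroblasts of every library, and the 6 markers were at 0 in all endothelial sums. In epithelial cells, their sum was 0.200 to 0.555 CPM. Among the fibroblast sums, other genes abundant in fat cells were highest in replicate 4, chosen here after their values were seen. Fabp4 was 465 CPM there against 6.73 to 21.5 CPM in the other 3 libraries, Pparg 12.9 against 1.45 to 4.80 CPM, and Plin4, a droplet coat protein, 14.0 against 0.462 to 2.45 CPM. Fabp4 and Pparg are not particular to fat cells here, since they averaged 1330 and 25.4 CPM in endothelial cells. Endothelial markers in fibroblasts were also highest in replicate 4, at 75.7 against 32.4 to 66.3 CPM. Pericyte markers were too, at 95.6 against 54.6 to 57.1 CPM. Macrophage markers were not, at 137 CPM in replicate 4 against 128 to 184 CPM in the other libraries. The part of other cell types in the Cd36 and Lpl of the replicate 4 fibroblasts was not tested.

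**Figure D2:**
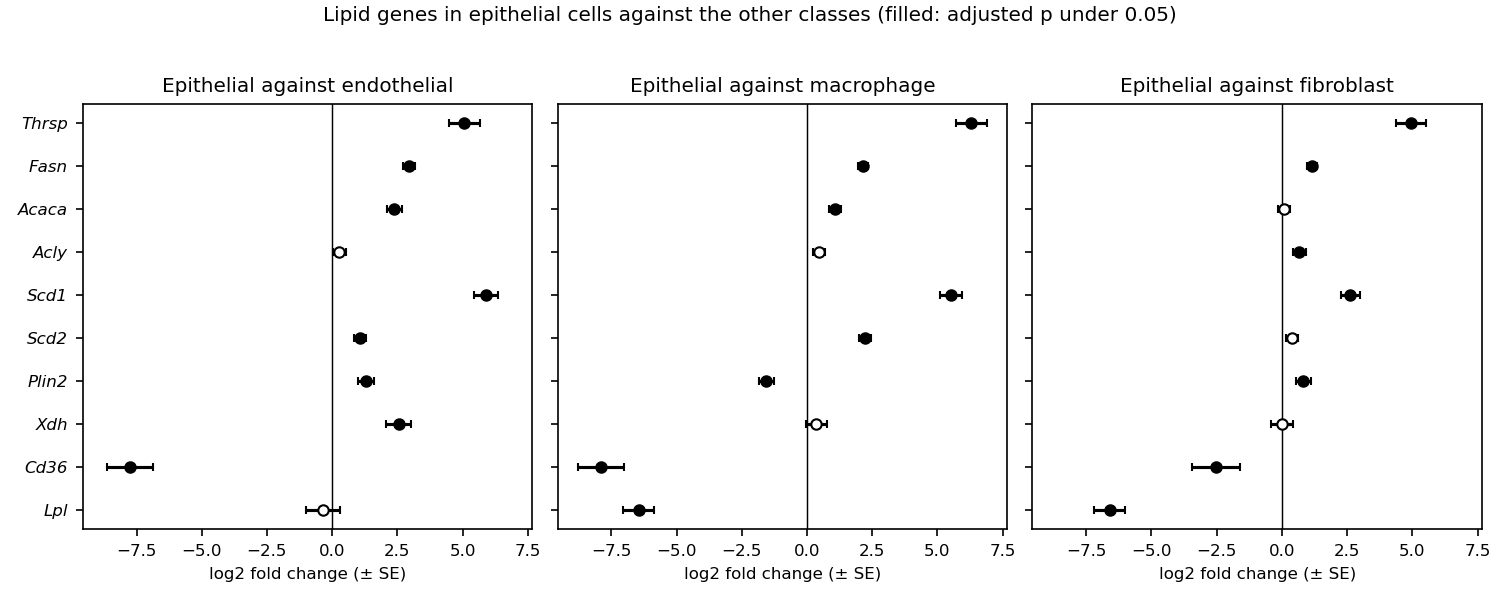
Log2 fold changes (± SE, edgeR) of the 10 genes in epithelial cells against each other class, with filled points at an adjusted p under 0.05. Thrsp, Scd1 and Fasn are filled and right of 0 in all 3 panels, and Cd36 is filled and left of 0 in all 3. Acaca, Acly, Scd2 and Xdh also lie right of 0 in all 3 and Lpl left, but not all of their points are filled.

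Counting calls over the 10 genes, 8 differed between epithelial and endothelial cells, where 56.4% of 14914 genes tested did. Of these 7 were higher in epithelial cells (31.8% of all genes) and 1, Cd36, lower (24.6%). Between epithelial cells and macrophages 8 of 10 differed (64% of all), with 5 higher (34.1%) and 3 lower (29.9%). Between epithelial cells and fibroblasts 7 differed (60.6%), with 5 higher (31.5%) and 2 lower (29.1%).

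Endothelial cells and macrophages differed in 6 members (55.1% of all genes), with Scd2 higher in endothelial cells (24.4%) and 5 lower (30.7%). Endothelial cells and fibroblasts differed in 7 (48.4%), with Cd36 higher in endothelial cells (21.7%) and 6 lower (26.7%). Macrophages and fibroblasts differed in 7 (65.3%), with Plin2 and Cd36 higher in macrophages (33.5%) and 5 lower (31.7%). In each comparison 6 to 8 of 10 members were called, a share not far above that of all genes. The median log2 difference of the members was 1.85 for epithelial over endothelial cells, 0.78 over macrophages and 0.52 over fibroblasts, beside all-gene medians of 0.19, 0.08 and 0.09. These medians depend on the scaling, since without TMM the all-gene median of epithelial over macrophage cells moved to 0.44, that of endothelial over macrophage cells from -0.17 to 0.24, and that of macrophage over fibroblast cells from 0.07 to -0.23. In these comparisons the split of higher to lower calls moved with it, from 5093 and 4453 to 7070 and 3232 for epithelial against macrophage cells, from 3638 and 4576 to 5402 and 2947 for endothelial against macrophage cells, and from 5001 and 4734 to 3543 and 5877 for macrophage against fibroblast cells.

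Other genes of the pathway, 57 in number in 6 groups, were followed alongside. Among the 51 tested in epithelial against endothelial cells, 29 were higher and 9 lower in epithelial cells, where 31.8% and 24.6% of all genes were. Against macrophages 26 were higher and 12 lower (34.1% and 29.9% of all genes), and against fibroblasts 21 were higher and 12 lower (31.5% and 29.1%). Srebf1, the sterol-response factor that turns on fatty acid synthesis, averaged 234 ± 40.2 CPM in epithelial cells (SD, n = 4), 36.7 ± 10.3 CPM in fibroblasts, 27.7 ± 2.99 CPM in endothelial cells and 21.6 ± 2.47 CPM in macrophages. Its epithelial excess was called in all 3 comparisons. Called in all 6 class comparisons were Acsl1, Fabp4, Me1, Mgll, Pnpla2, Slc27a1 and Slc27a3. Me1, the malic enzyme that provides NADPH for synthesis, averaged 79.8 ± 11.6 CPM in epithelial cells and 1.37 ± 0.167 CPM in macrophages. Fabp4, a fatty acid carrier, averaged 1330 ± 1058 CPM in endothelial cells and 1.29 ± 0.224 CPM in epithelial cells. Among the milk-fat genes Btn1a1, butyrophilin, was 1.04 to 27.2 CPM in epithelial cells and at most 1.23 CPM elsewhere, and the Lpl anchor Gpihbp1 averaged 2216 ± 1382 CPM in endothelial cells and under 1 CPM as a mean elsewhere.

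For each member, the genes with the most similar profile over the 16 class sums were found among 10892 genes with a mean of at least 5 CPM, by Pearson correlation of log2 CPM, given without a test. The 16 points share 4 mice and 4 classes. Thrsp was nearest to Tpd52l1 and Srebf1 (both r = 0.97), Fasn to Fbxo36 (0.97) and Cep170b (0.96), and Scd1 to Atp1b1 and Crabp2 (both 0.97). Plin2 was nearest to Rbfa (0.95) and Tmem192 (0.94), Cd36 to Dusp2 (0.97) and Il2rg (0.96), and Lpl to Hgf (0.99) and Lamp2 (0.98). Acaca was nearest to Mgst1 (0.96) and Lnpk (0.94), Acly to Gprc5a (0.89) and Smarcd2 (0.87), Scd2 to Abhd2 and Gtf2ird1 (both 0.96), and Xdh to Ttc38 (0.92) and Zfp219 (0.91).

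The share of cells in which a gene was seen was also compared. To do so at 1 depth, every cell was thinned to 1000 UMIs. In epithelial cells, 9.40% and 22.6% of cells of Cre- replicates 1 and 3 and 14.7% and 16.9% of those of Cre+ replicates 2 and 4 then held a Thrsp UMI, against 0% to 1.22% of T cells, a class that should lack it. Before thinning the shares were 49.0% to 73.7% in epithelial cells, with median depths of 13033 to 23440 UMIs, and 0.840% to 3.35% in T cells, with median depths of 5723 to 11495 UMIs. For Scd1 the thinned epithelial shares were 19.6% to 35.4%, against 0.806% to 2.10% of T cells. For Plin2, 24.2% to 39.6% of macrophages and 14.9% to 22.1% of epithelial cells held a UMI, against 2.69% to 4.88% of T cells. Lpl was seen in 9.63% to 17.4% of macrophages and 9.76% to 34.1% of fibroblasts, against 0% to 0.385% of T cells.

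**Figure D3:**
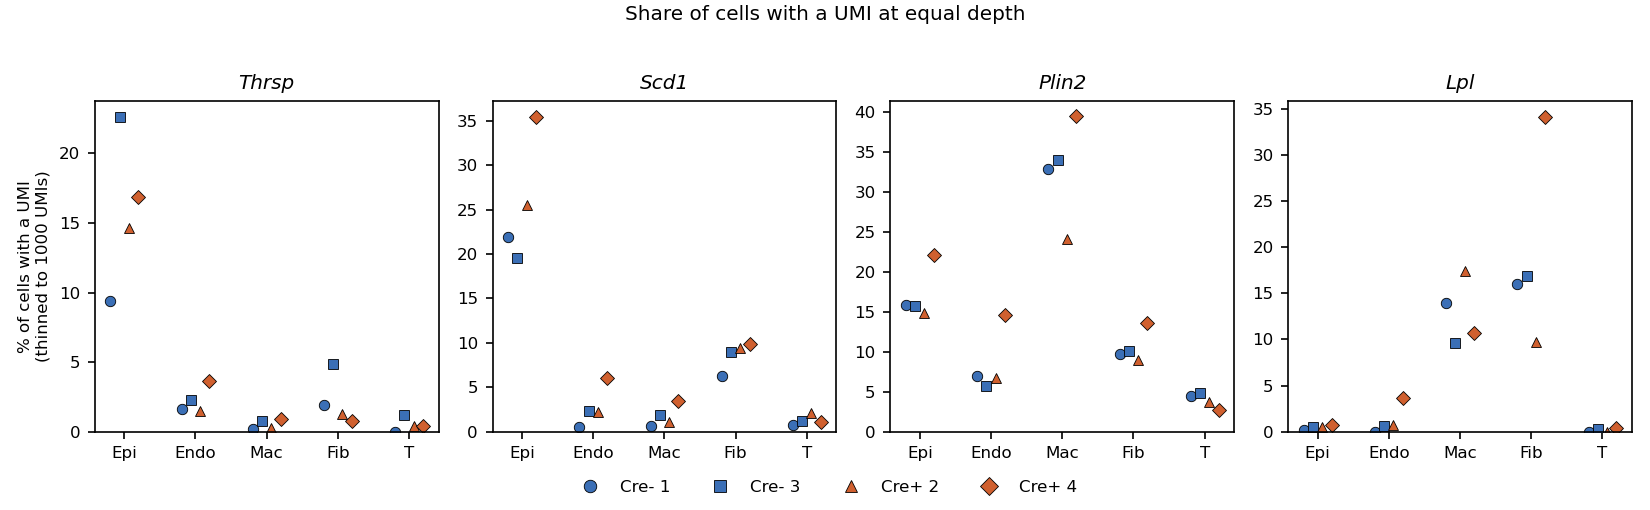
Percent of cells with at least 1 UMI of Thrsp, Scd1, Plin2 or Lpl after thinning every cell to 1000 UMIs, per class and library, with T cells for background. Each gene stands above T cells in its leading class in all 4 libraries.

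Free RNA could be measured in Cre+ replicate 4, whose files keep all barcodes. In its barcodes with at most 100 UMIs, Thrsp was at 181 CPM, Scd1 at 395 CPM, Plin2 at 382 CPM, Cd36 at 44.8 CPM and Lpl at 52.4 CPM. There the macrophage level of Scd1 was 3.52% of the free-RNA level and that of T cells 3.20%. Over the 4 libraries Thrsp was 1.66 to 3.62 CPM in macrophages and 1.07 to 5.20 CPM in T cells. Scd1 was 3.98 to 13.9 CPM in macrophages and 5.93 to 12.6 CPM in T cells. Both genes thus overlapped between macrophages and T cells. T cells held more epithelial marker RNA, at 123 to 218 CPM against 54.3 to 89.5 CPM in macrophages. They are therefore not an equal background, and the part of background in macrophage Thrsp and Scd1 was not tested. Endothelial Thrsp (6.84 to 13.4 CPM) lay above the T cell values. In Cre+ replicate 4, Acly and Scd2 of endothelial cells were at 96.5% and 85.5% of their free-RNA levels, and those of T cells at 62.1% and 26.6%. These are ratios of levels and not the share of counts that came from free RNA, which was not tested.

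Within epithelial cells, cells with a Thrsp UMI after thinning were compared with those without, as a description. They numbered 220 and 465 in Cre- replicates 1 and 3, and 345 and 506 in Cre+ replicates 2 and 4, and had more UMIs per cell (medians 21125 to 39973 against 12454 to 22095). Acly was higher in them in 4 of 4 mice, by 1.34-fold to 2.02-fold, Fasn by 1.17-fold to 1.77-fold, Scd2 by 1.12-fold to 1.42-fold and Plin2 by 1.05-fold to 1.25-fold. Scd1 was 0.794-fold to 1.21-fold and Acaca 0.813-fold to 1.31-fold, with no common direction. Whether depth has a part in these ratios was not tested.

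The casein split asked whether the lipid genes follow milk protein genes. Epithelial cells of each library were divided at the median share of UMIs in Csn1s1, Csn1s2a, Csn2, Csn3, Wap, Lalba and Glycam1. Of 15200 genes, 0 were called by edgeR (0% of all, 951 at an unadjusted p under 0.05), against 101 by DESeq2 and 40 with the mouse as a block. Xdh was higher in casein-high cells of all 4 mice, at 223 against 89.2 CPM in replicate 1 (Cre-), 60.8 against 41.7 CPM in replicate 3 (Cre-), 117 against 55.9 CPM in replicate 2 (Cre+) and 118 against 71.8 CPM in replicate 4 (Cre+). The log2 difference of 1.04 ± 0.42 did not pass (edgeR adjusted p = 0.782). Scd1 was also higher in all 4, for example 418 against 184 CPM in replicate 1 (Cre-) and 1208 against 743 CPM in replicate 4 (Cre+), and its log2 difference of 0.79 ± 0.37 did not pass either (adjusted p = 0.826). With the mouse as a block neither Xdh nor Scd1 was called. Thrsp went both ways, higher in casein-low cells of Cre- replicates 1 and 3 and Cre+ replicate 2 and higher in casein-high cells of Cre+ replicate 4 (572 against 168 CPM).

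Cells led by Krt5 and Krt14 over Krt8 and Krt18 were few, 15 to 22 cells in Cre- replicates 1 and 3 and Cre+ replicate 2, and 258 in Cre+ replicate 4. In that library, Scd1 was 117 CPM in the Krt5-Krt14-led cells and 1097 CPM in the Krt8-Krt18-led cells, and Thrsp 80.9 against 435 CPM. In the other 3 libraries Thrsp was 13.5 to 82.3 CPM in these cells against 169 to 376 CPM in the Krt8-Krt18-led cells.

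Within macrophages, cells with more UMIs of Trem2, Gpnmb and Spp1 (markers of lipid-associated macrophages) were compared with those with more of Folr2, Lyve1 and Mrc1 (markers of resident macrophages). Scd2 was higher in the Trem2 type in every mouse, 61.1 against 13.1 CPM in replicate 1 (Cre-), 48.3 against 19.1 CPM in replicate 3 (Cre-), 41.0 against 10.8 CPM in replicate 2 (Cre+) and 40.0 against 12.8 CPM in replicate 4 (Cre+). The log2 difference was 1.91 ± 0.16 (edgeR adjusted p = 0.0011). Xdh and Acly were lower in the Trem2 type in every mouse. Xdh was 39.2 against 101 CPM in replicate 1 (Cre-), 33.9 against 128 CPM in replicate 3 (Cre-), 27.4 against 186 CPM in replicate 2 (Cre+) and 14.8 against 47.3 CPM in replicate 4 (Cre+) (log2 difference -1.89 ± 0.41, adjusted p = 0.0193). Acly ranged from 39.5 to 49.7 CPM against 63.0 to 95.4 CPM (-0.77 ± 0.12, adjusted p = 0.0054).

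Thus 3 of 10 members were called, where 14.2% of 11782 genes were, with 1 higher in the Trem2 type (6.4% of all genes) and 2 lower (7.82%). The calls of Xdh and Acly were lost without Cre- replicate 1 or Cre- replicate 3, while Scd2 stayed called without any 1 library. Plin2, Lpl and Cd36 did not pass, and Plin2 was 318 to 614 CPM in the Trem2 type and 370.3 to 709 CPM in the Folr2 type. With the mouse as a block 4280 genes were called against 1675 without it, and Fasn became the fourth member, at 0.53 ± 0.15 (adjusted p = 0.0319). The Trem2 type had 606 and 792 cells in Cre- replicates 1 and 3 and 798 and 1679 in Cre+ replicates 2 and 4, and had more UMIs per cell in all 4 (medians 13623 to 19856 against 8786 to 16719).

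Within fibroblasts, cells with a UMI of Pi16 or Dpp4 (markers of adventitial fibroblasts) were compared with the rest, and 2 of the 9 members tested were called, where 14.3% of 10877 genes were, with 1 higher (7.02% of all genes) and 1 lower (7.24%). Xdh was higher in Pi16-Dpp4 cells in every mouse, at 120 against 41.2 CPM in replicate 1 (Cre-), 74.1 against 36.7 CPM in replicate 3 (Cre-), 106 against 52.9 CPM in replicate 2 (Cre+) and 98.9 against 49.7 CPM in replicate 4 (Cre+). The log2 difference was 1.20 ± 0.17 (edgeR adjusted p = 0.0030). Thrsp was lower in them, at 1.34, 2.78, 3.62 and 3.15 CPM against 57.2, 18.3, 26.5 and 2.07 CPM, in Cre- replicates 1 and 3 and Cre+ replicates 2 and 4, so that Cre+ replicate 4 went the other way, from 1 UMI. This call (-3.25 ± 0.61, adjusted p = 0.0086) was lost without Cre- replicate 1 or Cre- replicate 3. With the mouse as a block Plin2 was called as lower too (-1.01 ± 0.20, adjusted p = 0.0131). The other fibroblasts were shallower in Cre- replicate 3 and Cre+ replicate 2, with medians of 1841 and 2281 UMIs against 26418 and 28903. They were also shallower in Cre+ replicate 4, at 12574.5 against 20030.5, but not in Cre- replicate 1, at 22186 against 22090. The part of depth was not tested.

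**Figure D4:**
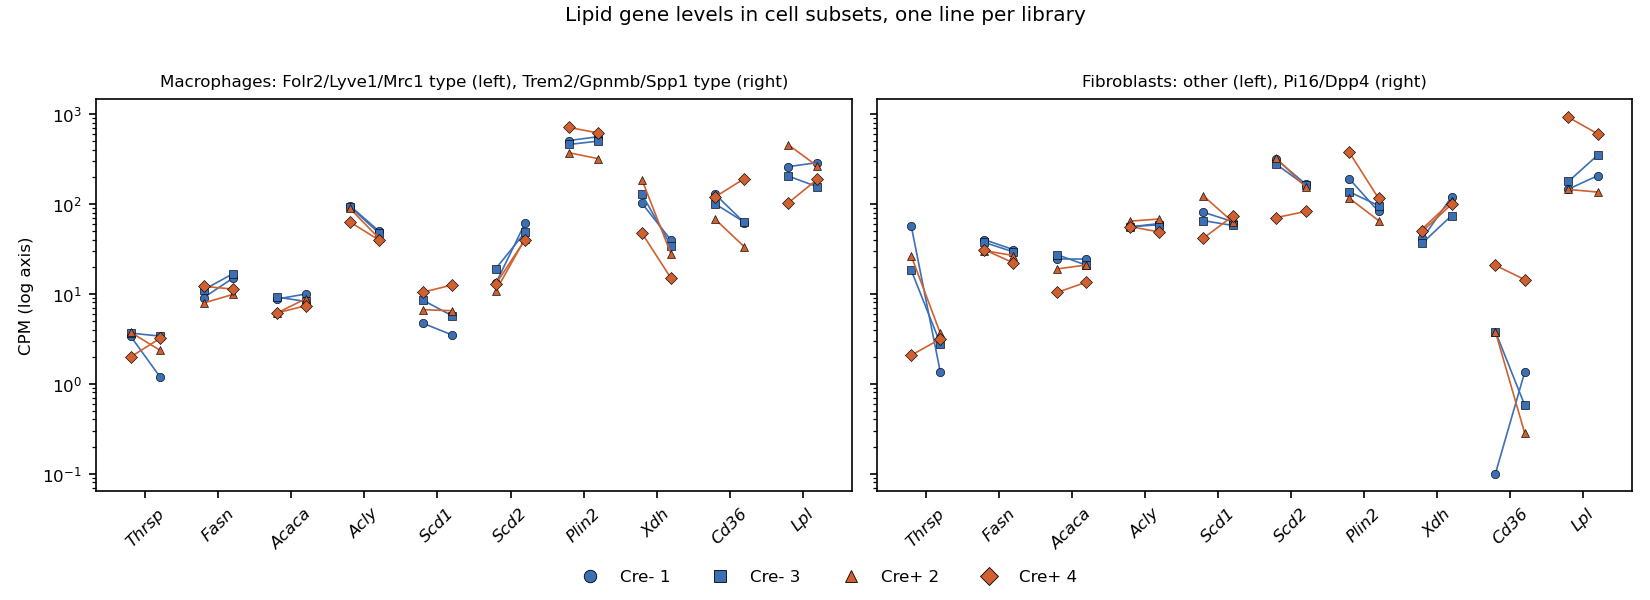
CPM (log axis) of the 10 genes in subsets of macrophages (left panel) and fibroblasts (right panel), a line joining the subsets of 1 library, with a value of 0 CPM drawn at 0.1. Scd2 rises and Xdh falls from the Folr2 to the Trem2 type in all 4 libraries, and Xdh rises from the other to the Pi16-Dpp4 fibroblasts in all 4.

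The genotypes were then compared within each class, over 2 mice each. In epithelial cells Scd1 was 271 and 286 CPM in the Cre- and 422 and 1017 CPM in the Cre+ libraries, so the genotypes did not overlap. Acaca (16.9 and 20.2 against 21.0 and 32.3 CPM), Plin2 (178 and 184 against 202 and 309 CPM) and Lpl (1.14 and 3.54 against 3.75 and 6.23 CPM) also lay higher in both Cre+ libraries. Thus 4 of 10 members were above both Cre- libraries and 0 below, where 12.6% of 16274 genes lay above and 15.6% below. Fibroblast markers in the epithelial sums had the same order as Lpl. They were 43.2 and 55.0 CPM in Cre- replicates 1 and 3 and 82.5 and 137 CPM in Cre+ replicates 2 and 4. Macrophage markers in the epithelial sums did not have this order. They were 124 and 134 CPM in Cre- replicates 1 and 3 and 230 and 127 CPM in Cre+ replicates 2 and 4. The part of RNA from other cells in epithelial Lpl, and so in this count, was not tested. The mean Scd1 level was 2.58-fold higher in Cre+ mice (720 ± 421 against 279 ± 10.9 CPM, SD, n = 2 each), and replicate 4 gave the higher Cre+ value. Epithelial cells of the Cre+ libraries were also shallower, with medians of 13948 and 13033 UMIs per cell against 23440 and 23273 in the Cre- libraries, and the part of this depth in the genotype differences was not tested.

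By edgeR none of these differences passed. The log2 fold change of Cre+ over Cre- was 1.46 ± 0.52 for Scd1 (unadjusted p = 0.0406), 0.57 ± 0.31 for Plin2, 0.60 ± 0.33 for Acaca and 1.18 ± 0.71 for Lpl, and for Thrsp 0.45 ± 0.46, each with adjusted p = 0.999. Fasn (-0.04 ± 0.21), Scd2 (0.08 ± 0.24) and Xdh (-0.09 ± 0.55) lay near 0, Acly was at 0.43 ± 0.51, and Cd36, at 1.34 ± 0.80, rests on levels near 1 CPM in Cre+ replicate 4 and well below it elsewhere. Of the 16274 genes 0 were called (0%, with 407 at an unadjusted p under 0.05), against 79 by DESeq2, none a member. The median of the members was 0.51 beside 0.02 for all genes. Without Cre+ replicate 4 the fold change of Scd1 moved from 1.46 to 0.57, that of Plin2 from 0.57 to 0.13, that of Acaca from 0.60 to 0.15, that of Lpl from 1.18 to 0.65 and that of Cd36 from 1.34 to 0.13. With limits of 200 to 5000 genes and under 30000 UMIs per cell, Scd1 was at 0.67. Without Cre- replicate 1, Lpl was at 0.56, and without Cre- replicate 3 at 2.21. Without Cre+ replicate 4, Acly changed sign, from 0.43 to -0.42, and without Cre- replicate 1, Thrsp did, from 0.45 to -0.04. An exact permutation test over 2 mice against 2 cannot go below a two-sided p of 0.333. Replicate 4 was processed with another Cell Ranger version and deposited with all barcodes, so version and this mouse cannot be told apart.

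In the other classes the members did not share a direction. In endothelial cells Thrsp, Lpl and Scd1 lay above both Cre- libraries and Acly and Fasn below, thus 3 and 2 of 10 beside 15.7% and 17.3% of 10065 genes. Endothelial Scd1 was 4.44 and 4.65 against 9.22 and 20.2 CPM, from 13 to 18 UMIs per library, and the levels stand near those of T cells of the same libraries (5.93 and 9.10 against 6.40 and 12.6 CPM). In macrophages Acaca, Fasn and Scd2 lay below both Cre- libraries and 0 above, beside 17.8% and 6.26% of 13043 genes. In fibroblasts Xdh lay above and Acaca, Fasn and Scd2 below, 1 and 3 of the 9 tested, beside 13.4% and 22.8% of 12723 genes. By edgeR 0 genes were called in endothelial, macrophage or fibroblast cells (0%, with 424, 216 and 722 genes at an unadjusted p under 0.05), and DESeq2 called 8, 8 and 73.

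Some calls of members came up when a library or a filter was changed. Without Cre+ replicate 2, endothelial Scd1 (2.20, adjusted p = 0.0319) and Plin2 (1.09, adjusted p = 0.0332) and macrophage Cd36 (1.41, adjusted p = 0.0019), Xdh (-1.38, adjusted p = 0.0073) and Scd1 (1.46, adjusted p = 0.0269) were called by edgeR. That fit compares Cre+ replicate 4 alone with 2 Cre- mice and assumes that the lone library varies like the others. The macrophage levels of Cd36 (178 CPM) and Xdh (20.2 CPM) in it stand apart from those of the other 3. Macrophage Scd1 overlapped the T cell values in range, and in replicate 4 it was at 3.52% of the free-RNA level, against 3.20% in T cells. The part of background in it was not tested. Without a filter on low counts, fibroblast Cd36 (2.89), Thrsp (-1.61), Lpl (0.67) and Scd2 (-0.64) were called. No member was called between genotypes under the other alternatives run.

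**Figure D5:**
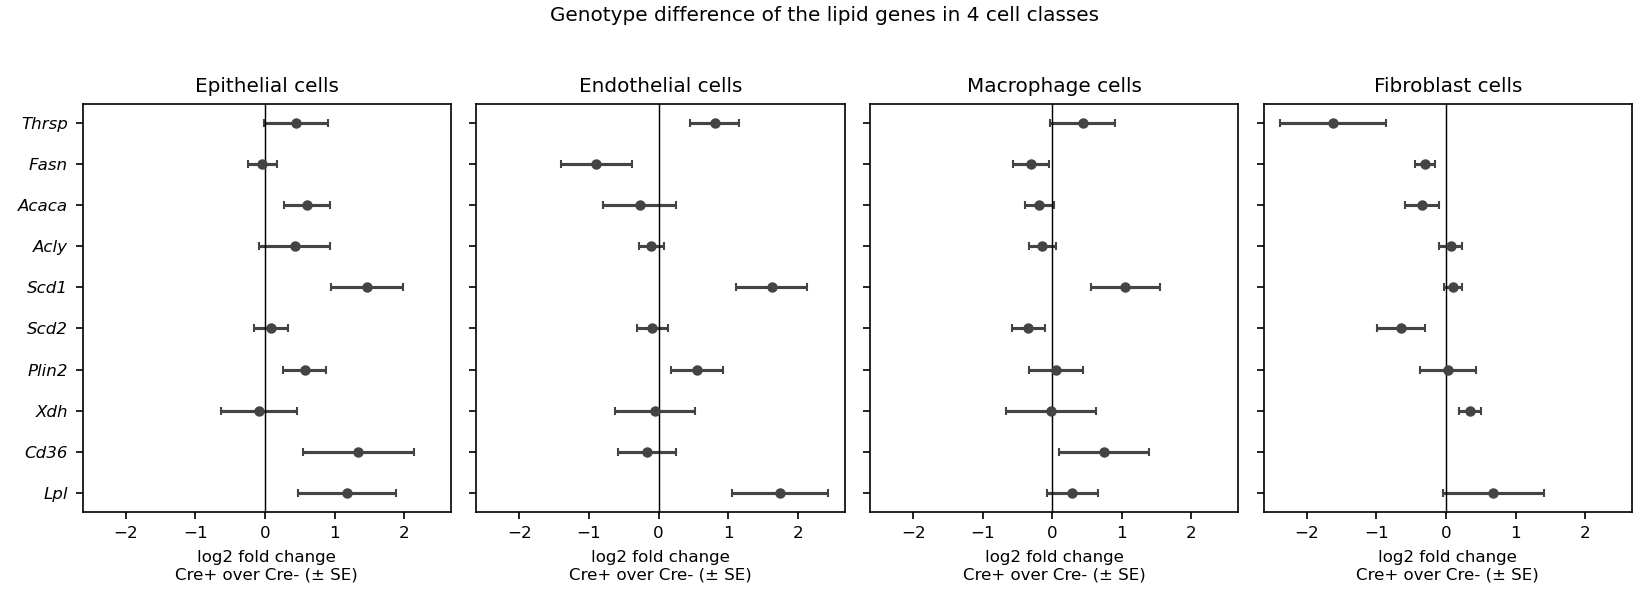
Log2 fold change of Cre+ over Cre- (± SE, edgeR) of the members tested in each class, at 2 mice per genotype. None has an adjusted p under 0.05, and epithelial Scd1 lies at 1.46.

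The difference of the genotype effect between epithelial cells and each other class was tested directly. In the 3 comparisons 0 of 16014 genes were called (0% in each, with 669, 290 and 532 at an unadjusted p under 0.05 for endothelial cells, macrophages and fibroblasts), against 11, 7 and 14 by DESeq2. The members with the lowest unadjusted p by edgeR were Thrsp, at 2.06 ± 0.87 for epithelial cells minus fibroblasts, and Acaca, at 0.97 ± 0.41 for the same classes. Their unadjusted p was 0.0367 and 0.0371 and their adjusted p 1.00 by edgeR. By this test no member was shown to differ in its genotype effect between epithelial cells and another class.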

How the data were processed

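Single-cell 3' RNA libraries of 4 mouse mammary tumors were analysed, 1 mouse each. The deposited values are UMI counts per gene and barcode, which the authors made with Cell Ranger 6.1.2 (replicates 1 to 3, called cells of at least 500 UMIs) or Cell Ranger 4 (Cre+ replicate 4, all 2582424 barcodes). The submitters' processing notes name hg38, although the gene identifiers are mouse. Software version and deposited form therefore differ for 1 Cre+ library, which can make its counts differ, and fits without replicate 4 compare libraries of 1 version.

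Barcodes with at least 1000 UMIs and at most 20% mitochondrial UMIs were kept. A cell entered a class with at least 10 UMIs per 10000 and at least 3 markers of that class (2 for T cells, B cells, granulocytes and pericytes) and no other class passing, which also stood in for a doublet caller, since none was run. No cell annotation was used. Markers were Epcam, Krt8, Krt18, Krt19, Cldn3, Cldn7, Cdh1, Krt14 and Krt5 for epithelial cells, Pecam1, Cdh5, Emcn, Kdr, Flt1, Egfl7, Esam and Plvap for endothelial cells, C1qa, C1qb, C1qc, Cd68, Adgre1, Csf1r and Ms4a7, with 1 more gene not reported here, for macrophages, and Col1a1, Col1a2, Col3a1, Dcn, Lum, Pdgfra and Col6a1 for fibroblasts. Gate genes were left out of class tests.

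Counts were summed per class and library, and edgeR 4.0.16 (quasi-likelihood, TMM, filtered on low counts, R 4.3.3) was run across all genes with Benjamini-Hochberg adjustment and a threshold of 0.05. Errors of fold changes are SE. For edgeR they were taken as the absolute log2 fold change divided by the square root of the test's F statistic. The alternatives were DESeq2 1.42.0, no TMM, no filter, limits that keep cells with 200 to 5000 genes and under 30000 UMIs (the study's methods give these numbers but word them as cells excluded, and they were read here as cells kept), a stricter gate, another calling of cells in Cre+ replicate 4, the mouse as a block and each library left out. The steps were also run on simulated counts drawn without a mouse effect, so that run gives no error rates for these mice. Class and subset sums of 1 library come from 1 mouse. Their deviations from the mean of the 4 libraries, which keep any genotype difference, were correlated between classes or subsets. Within a mouse they correlated at 0.138 to 0.402 over the classes and 0.611 to 0.808 over casein-high and casein-low cells. The range was 0.404 to 0.737 over macrophage types and 0.22 to 0.346 over fibroblast types. Between different mice it was -0.301 to 0.146, -0.517 to 0.242, -0.533 to 0.379 and -0.205 to 0.0273 in the same order. With 2 mice per genotype, p-values of the genotype comparisons within a class measure the spread between these mice. The fits between classes, between subsets and of the difference of the genotype effect had no mouse term, except with the mouse as a block. They treated the sums of 1 mouse as independent. The genes named are the 10 members, the pathway genes called in all 6 class comparisons and the 2 most alike genes per member, with further pathway genes given for their role. The members and lists were chosen with earlier results of these data known. Upstream sequences came from RefSeq (GRCm38.p6), matched by symbol.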

Additional observations from a re-analysis of the deposited data

Results flagged for a closer look

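Outside the classes compared, Scd1 was high in B cells. It was 153 CPM in replicate 1 (Cre-) and 313 CPM in replicate 3 (Cre-), and 438 and 291 CPM in the Cre+ replicates 2 and 4, against 5.93 to 12.6 CPM in T cells of the same libraries. These B cells numbered 12, 14, 16 and 80, and their Scd1 levels overlapped those of epithelial cells. Plin2 in granulocytes was 390.3 CPM in replicate 1 (Cre-), 263 CPM in replicate 3 (Cre-) and 1002 CPM in replicate 4 (Cre+), against 28.0 to 40.5 CPM in T cells, and it was 101 CPM in replicate 2 (Cre+), from 11 UMIs.

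Acaca was higher in both Cre+ than in both Cre- libraries in epithelial cells, and lower in both in macrophages and fibroblasts. In epithelial cells 12.6% of all genes tested lay above in this way. In macrophages 17.8% and in fibroblasts 22.8% lay below. The epithelial log2 fold change of Acaca fell from 0.60 to 0.15 without Cre+ replicate 4. The difference of the genotype effect was 0.77 ± 0.41 for epithelial cells minus macrophages (unadjusted p = 0.0831 by edgeR) and 0.97 ± 0.41 minus fibroblasts (unadjusted p = 0.0371), and neither passed after adjustment.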

How the results depend on the processing

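Of the 48 called member values, 38 were never lost over 11 alternatives. Of 527 values 500 were unchanged in direction and call, 26 were no longer called and 1 changed sign, that of Acly in epithelial against fibroblast cells at -0.015 with limits on genes and UMIs per cell. For called genes between genotypes (0 by edgeR in each class), DESeq2 gave 79 in epithelial, 8 in endothelial, 8 in macrophage and 73 in fibroblast cells, no filter gave 15 in macrophages and 578 in fibroblasts, and these limits gave 1 in endothelial cells. Leaving out 1 library gave 0 to 13, 0 to 262, 0 to 1348 and 0 to 1 in the same class order, each highest without Cre+ replicate 2. The casein split had 101 by DESeq2 and 40 with the mouse as a block. The class differences of the genotype effect had 32 by DESeq2, 8 with no filter, 1 with the mouse as a block and 0 to 52 with 1 library left out, highest without Cre+ replicate 2. Called members numbered 4 to 7 for epithelial against fibroblast cells with 1 library left out (4 without Cre- replicate 1), 1 to 5 for the macrophage types and 1 to 4 for the fibroblast types, which had 4 with no filter and 1 with these limits. With the mouse as a block, 4280 genes against 1675 were called between macrophage types, and members changed call only where the text gives it, including Thrsp in macrophages against fibroblasts (adjusted p = 0.0506).

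Epithelial genotype effects that changed sign with 1 library left out ranged from -0.036 to 1.13 for Thrsp, -0.17 to 0.10 for Fasn, -0.42 to 0.95 for Acly, -0.15 to 0.28 for Scd2 and -0.66 to 0.85 for Xdh, and Scd2 was -0.16 with these limits. The cause was not tested. Endothelial sums rest on 82 to 186 cells, which limits the depth of Scd1, Lpl and Thrsp there.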
